A study of Mus musculus with 9 samples.

Results

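The TALE homeobox genes Meis1, Meis2, Meis3, Pbx2, Pbx3, Pknox1 and Tgif1 were followed over mouse leukemias that differ in Af10, the DOT1L partner encoded by Mllt10, and in the oncogene that drives them. Members were all probe sets whose only gene symbol in the platform annotation is 1 of these 7 names, which gave 17 of 45101 probe sets for 7 of 18193 genes: 3 for Meis1, 4 for Meis2, 1 for Meis3, 3 for Pbx2, 2 for Pbx3, 3 for Pknox1 and 1 for Tgif1. The measurement was 1 Affymetrix array per RNA sample of freshly harvested bone marrow, with 9 arrays in 3 groups of 3, all on a mixed C57/BL6 X 129 background. The floxed and deleted groups began as primary MLL-AF9 leukemias with both Af10 copies floxed, received the tdTomato vector MSCV-IRES-tdTomato without or with Cre recombinase, grew in secondary recipients and were sorted for tdTomato. The Hoxa9-Meis1 group held primary leukemias into which Hoxa9 and Meis1 had been transduced, neither sorted nor otherwise treated, and no floxed allele is named for them. Loss of Af10 therefore cannot be told apart from the presence of Cre, and in comparisons with Hoxa9-Meis1 leukemia the oncogene cannot be told apart from transplant generation, vector and sorting. The labels do not say whether each array is a separate mouse or primary leukemia, and all p-values thus rest on a spread between arrays that may be technical.

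TALE proteins carry a homeodomain with an extra loop of amino acids and bind DNA together with Hox proteins. Pbx proteins pair with Hox and with Meis or Pknox (Prep) partners, and binding by Meis or Pknox keeps Pbx in the nucleus. In MLL-rearranged leukemia, Meis1 and Pbx3 are known as cofactors of Hoxa9. Tgif proteins belong to the same superclass but act mainly as repressors of transcription, including that driven by Smads.

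Levels are given as log2(intensity + 1) and ± marks the SD of 3 arrays. Differences are on that log2 scale with the standard error (SE) of the limma fit, and a probe set was called at a limma adjusted p (Benjamini-Hochberg over 45037 probe sets) under 0.05. Median intensity per array was between 146 and 156, and arrays correlated at 0.980 to 0.990 within and 0.941 to 0.972 between groups across probe sets, which are not independent. The 9 probe sets of Y-linked genes lay between 2.97 and 4.71 and served as a gauge of background. All 4 Mllt10 probe sets fell in deleted leukemias, by 0.76 to 1.05, which checks the labels, although the floxed part of the gene is not named. Markers of myeloid cells were above that gauge on all arrays for 8 of 8 genes, with Mpo at 13.85, 13.87 and 14.19 in deleted, floxed and Hoxa9-Meis1 leukemias. The same held for 6 of 6 erythroid, 5 of 5 B cell and 6 of 6 stromal and endothelial markers. Lying above the gauge therefore does not by itself identify a cell type.

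After deletion of Af10, Pbx3 and 1 of 3 Meis1 probe sets fell and no member rose. The 3 member probe sets called lower were 17.6% of the 17, where 6.19% of all probe sets were called in either direction (2.41% higher and 3.77% lower). Probe sets of 1 gene are not independent, so this is a count over 2 genes. The arrays of both groups did not overlap for 8 member probe sets, against 24.8% of all probe sets, and the median difference over the 17 was 0.03. Floxed leukemias were above Hoxa9-Meis1 leukemias at 6 member probe sets, those of Meis1 and Pbx3 and 1 of Pbx2 (35.3%, where 9.02% of all were called, 4.95% higher and 4.07% lower), at a median difference of 0.18, and 8 did not overlap, against 28.1% of all. Deleted leukemias differed from Hoxa9-Meis1 leukemias at 7 (41.2%, where 15.0% of all were called): all 3 of Meis1 and all 3 of Pbx2 were higher, where 7.21% of all were called higher, and Tgif1 was lower, where 7.84% were. Again 8 did not overlap, against 34.2% of all, and the median difference was 0.30. The 3 comparisons share their groups and are therefore not independent of one another.

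**Figure D1:**
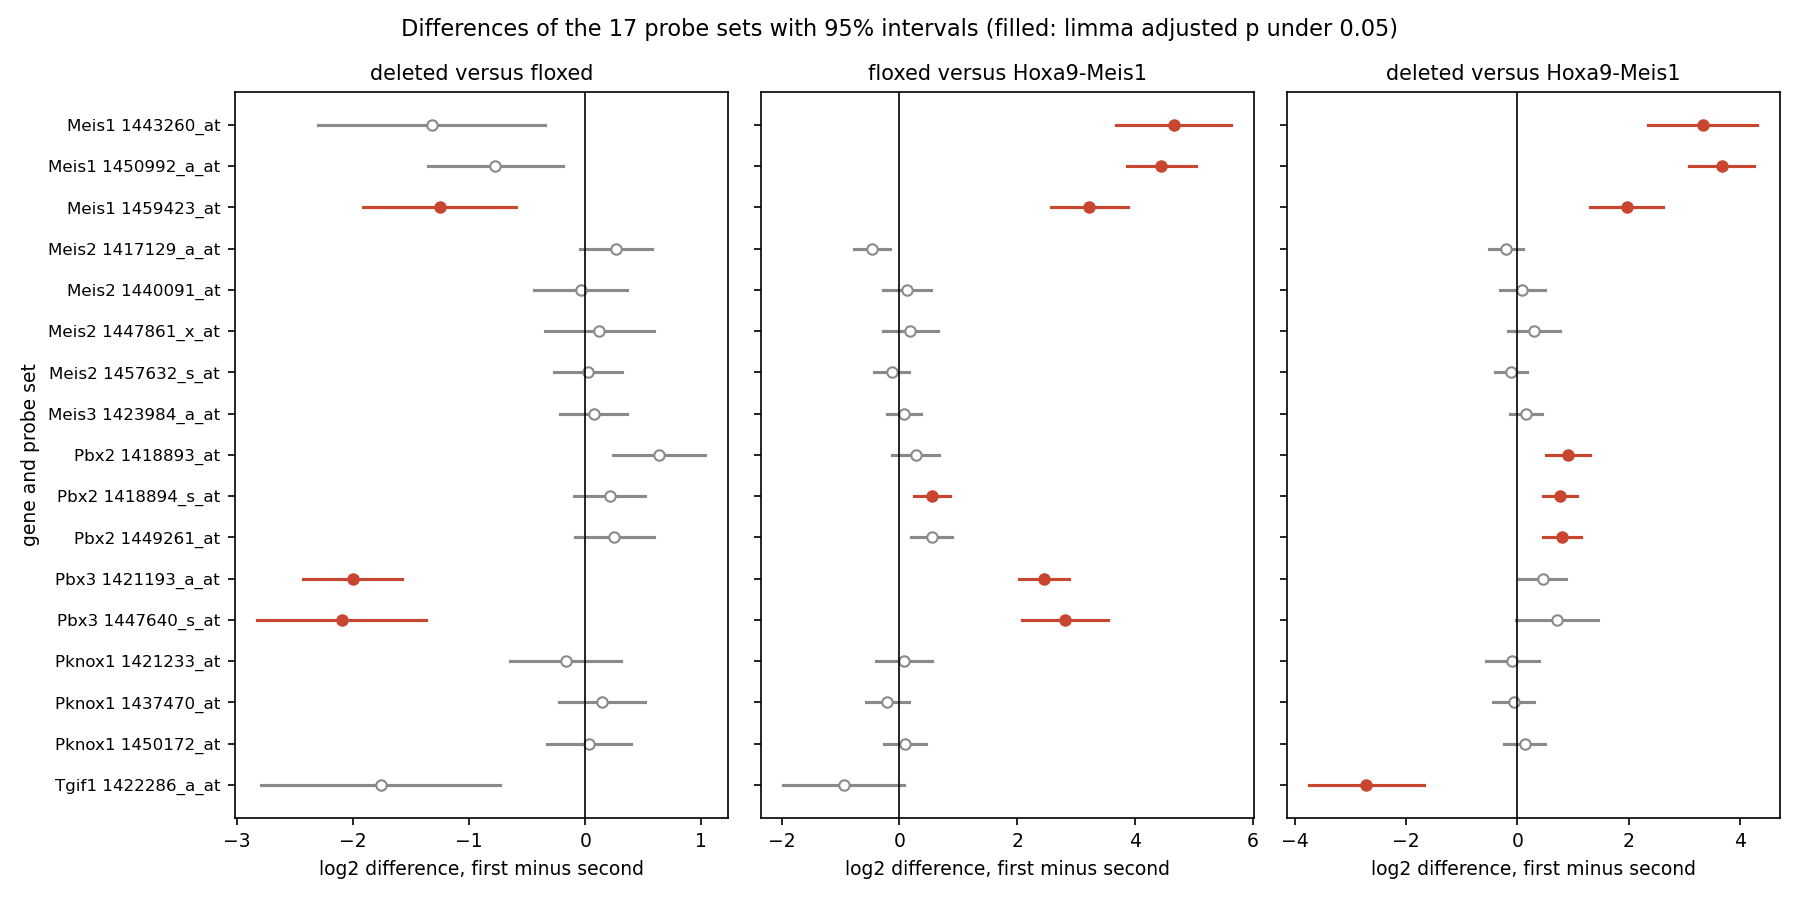
Difference of each of the 17 probe sets in the 3 comparisons, as log2 first group minus second on the horizontal axis, with 95% intervals from the limma fit as lines. Filled red points passed a limma adjusted p of 0.05; they are 3 in deleted versus floxed, 6 in floxed versus Hoxa9-Meis1 and 7 in deleted versus Hoxa9-Meis1 leukemia.

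Pbx3, which encodes a partner of Hox and Meis proteins on DNA, had the largest change of any member after Af10 deletion, and its probe sets moved alike. By 1421193_a_at it was at 11.69, 11.24 and 11.38 on the arrays of floxed replicates 4, 5 and 6. It was at 9.80, 9.29 and 9.22 on those of deleted replicates 4, 5 and 6. The groups did not overlap, and the lowest floxed array stood above every deleted one. Mean Pbx3 was 11.44 ± 0.23 in floxed and 9.43 ± 0.31 in deleted leukemias, a 4.01-fold fall (95% interval of the difference -2.43 to -1.58, SE 0.19, limma adjusted p = 0.000625). By 1447640_s_at it was at 10.78, 10.31 and 10.66 in floxed and at 8.96, 8.77 and 7.73 in deleted leukemias, in the same order of replicates. That probe set fell 4.28-fold (difference -2.10, SE 0.32, limma adjusted p = 0.00703), with deleted replicate 6 the lowest by a margin wider than that between the other deleted arrays. Both calls held in all 17 alternatives run for each.

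In Hoxa9-Meis1 leukemia Pbx3 stood at 8.85, 8.91 and 9.18 (1421193_a_at) and at 7.36, 7.82 and 8.14 (1447640_s_at). Floxed leukemias were 5.49-fold and 7.02-fold higher (limma adjusted p = 0.00021 and 0.00147). Deleted leukemias lay close to this level: the differences were 0.45 (95% interval 0.03 to 0.88, limma adjusted p = 0.15) and 0.71 (-0.02 to 1.44, limma adjusted p = 0.186). The first probe set still had no overlap between deleted and Hoxa9-Meis1 arrays, and the second did overlap, through deleted replicate 6. Without that array the second difference was 1.09 and was called (limma adjusted p = 0.0229). The order of Pbx3 levels was thus floxed, deleted, Hoxa9-Meis1, with the last neighbours not separated by the test.

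**Figure D2:**
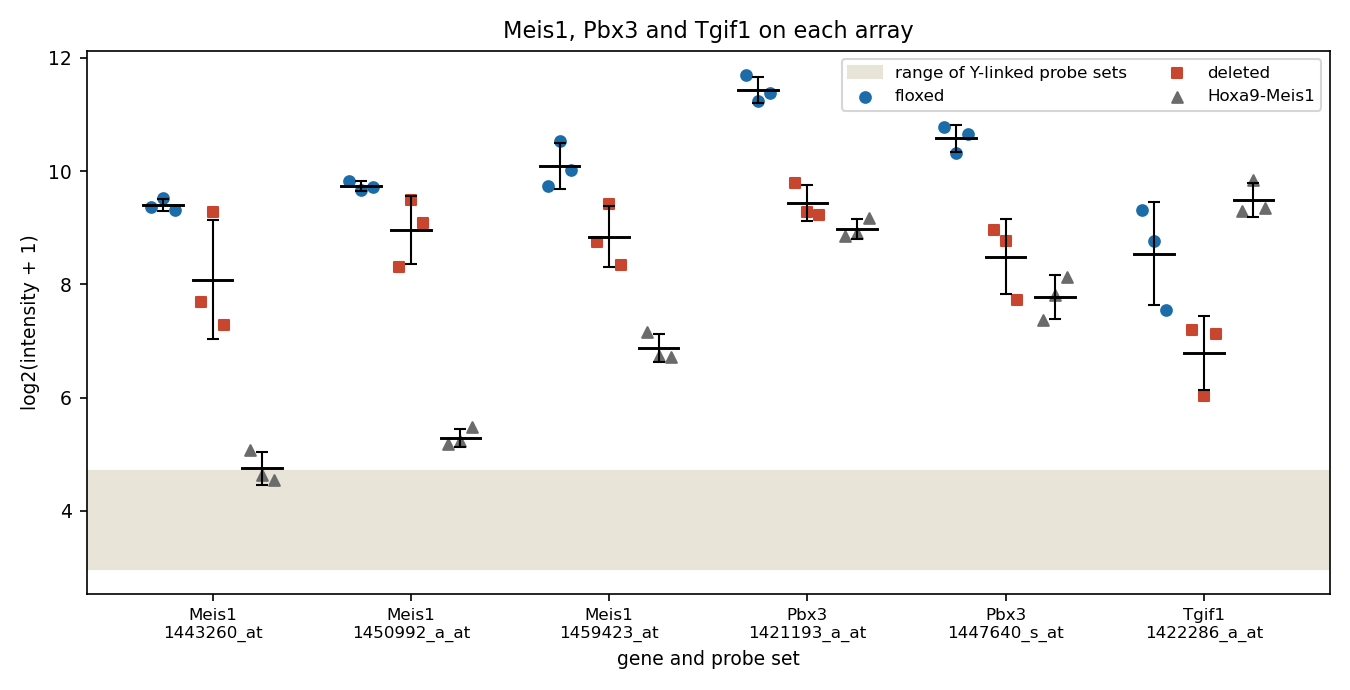
Levels of Meis1, Pbx3 and Tgif1 by probe set on each of the 9 arrays, as log2(intensity + 1) on the vertical axis; points are arrays, black bars are group means and whiskers are SD over 3 arrays. The shaded band spans the Y-linked probe sets, 2.97 to 4.71, and Meis1 reaches it only in Hoxa9-Meis1 leukemia, by 1443260_at.

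Meis1 encodes the TALE cofactor that, with Hoxa9, was transduced to make the Hoxa9-Meis1 leukemias. The RefSeq promoter windows of the Meis genes, 250 bases before to 50 after a start, are shown because Meis1 alone of the 3 paralogs was called in any comparison. Build GRCm38.p6 places them at chr11:19018920-19019219 (Meis1, minus strand), chr2:116064570-116064869 (Meis2, minus strand) and chr7:16175145-16175444 (Meis3, plus strand). Capitals mark the ETS core CCGGAAGT, here on the opposite strand as ACTTCCGG. The MEIS core TGACAG and the PBX-HOX motif TGATTNAT were searched on both strands too and have no match in these 3 windows.
Meis1: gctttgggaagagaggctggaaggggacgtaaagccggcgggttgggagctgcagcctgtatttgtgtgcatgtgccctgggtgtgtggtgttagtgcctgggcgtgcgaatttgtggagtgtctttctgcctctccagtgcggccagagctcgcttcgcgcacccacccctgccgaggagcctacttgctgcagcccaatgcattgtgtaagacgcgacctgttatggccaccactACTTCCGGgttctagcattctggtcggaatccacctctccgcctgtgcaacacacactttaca
Meis2: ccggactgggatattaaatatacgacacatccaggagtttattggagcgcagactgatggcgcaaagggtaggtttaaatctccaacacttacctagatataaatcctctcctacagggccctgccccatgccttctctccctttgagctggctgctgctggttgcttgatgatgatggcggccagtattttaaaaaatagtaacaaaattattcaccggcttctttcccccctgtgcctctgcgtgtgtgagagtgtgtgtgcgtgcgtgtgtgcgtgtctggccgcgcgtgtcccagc
Meis3: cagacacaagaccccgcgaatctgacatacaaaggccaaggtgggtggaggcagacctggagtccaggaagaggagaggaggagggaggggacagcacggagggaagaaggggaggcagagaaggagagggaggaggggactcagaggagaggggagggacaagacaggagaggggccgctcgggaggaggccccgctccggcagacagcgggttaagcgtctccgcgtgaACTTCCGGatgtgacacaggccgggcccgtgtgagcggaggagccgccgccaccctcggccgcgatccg
The Meis1 and Meis3 windows each hold the ETS core, as do 3.89% of 32851 promoter windows, while Meis1 differed between the groups and Meis3 was not called. They hold 15 and 21 CpG pairs and the Meis2 window holds 13, against a median of 7 over all windows. Of all windows, 65.4% hold fewer than Meis1, 75.2% fewer than Meis3 and 62.1% fewer than Meis2. The CCAAT box, left in lower case, is in the Meis1 and Meis2 windows and in 37.4% of all. A match is a description of letters and not a binding site.

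On the floxed arrays Meis1 was at 9.73, 10.53 and 10.02 by 1459423_at, in the order of replicates 4, 5 and 6. On the deleted arrays it was at 8.75, 9.42 and 8.35. The groups did not overlap, with deleted replicate 5 closest to the floxed arrays. By this probe set mean Meis1 was 10.09 ± 0.40 in floxed and 8.84 ± 0.54 in deleted leukemias, a 2.39-fold fall (difference -1.26, SE 0.29, limma adjusted p = 0.0382). By 1443260_at Meis1 was at 9.37, 9.53 and 9.31 in floxed and at 7.70, 9.28 and 7.28 in deleted leukemias. By 1450992_a_at it was at 9.83, 9.67 and 9.71 in floxed and at 8.31, 9.49 and 9.09 in deleted leukemias. On every probe set all deleted arrays lay below all floxed arrays and deleted replicate 5 was the highest deleted array, next to the lowest floxed array on the latter 2. These latter differences, -1.32 (SE 0.43) and -0.77 (SE 0.26), were not called (limma adjusted p = 0.116 and 0.123).

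The Meis1 difference of 1459423_at kept its direction in all 17 alternatives, but its call ended in 11. Leaving out deleted replicate 4 or 6, floxed replicate 5 or 6, or any Hoxa9-Meis1 array ended the call (differences of -1.29 to -1.01, limma adjusted p from 0.053 to 0.132), as did a fit of only both groups (0.0865, with the difference unaltered), array weights (0.0545, -1.08), a pseudocount of 32 (0.0506, -1.20) and leaving out deleted replicate 6 and floxed replicate 5 together (0.207, difference -0.79). The mean of the 3 Meis1 probe sets, fitted with 1 value a gene, was called (difference -1.12, limma adjusted p = 0.0433). Without deleted replicate 5 the other Meis1 probe sets were called too, at differences of -1.92 and -1.04 (limma adjusted p = 0.00308 and 0.0468).

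In Hoxa9-Meis1 leukemia, where Meis1 was introduced by transduction, all 3 Meis1 probe sets had their lowest levels. They were at 7.15, 6.74 and 6.72 (1459423_at), at 5.17, 5.23 and 5.47 (1450992_a_at) and at 5.08, 4.63 and 4.54 (1443260_at). The last lay within the Y-linked range on 2 of 3 arrays, so its fold is understated. In that group 1450992_a_at lay below Hba-a1, a marker of other cells at 6.10 to 6.42 over all arrays. There 1459423_at was about level with Pax5, another such marker, at 6.58 to 7.23. Their folds may be understated too. Floxed leukemias were 9.34-fold, 21.8-fold and 25.2-fold higher (limma adjusted p = 0.000441, 4.66e-05 and 0.000516). Deleted leukemias remained 3.91-fold, 12.7-fold and 10.1-fold higher (limma adjusted p = 0.00275, 6.92e-05 and 0.00143). No array of either MLL-AF9 group overlapped with a Hoxa9-Meis1 array, and the order floxed, deleted, Hoxa9-Meis1 was the same on the 3 probe sets.

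The probe sets of the other transduced gene, Hoxa9, differed from each other in Hoxa9-Meis1 leukemia. Hoxa9 by 1421579_at was highest in Hoxa9-Meis1 leukemia, at 13.82, 13.82 and 13.58, against 12.16 ± 0.39 in floxed and 9.15 ± 1.57 in deleted leukemias. By 1455626_at it was at 3.98, 4.73 and 5.43 in Hoxa9-Meis1 leukemia, around the top of the Y-linked range, against 12.88 in floxed and 9.79 in deleted leukemias. Floxed leukemias were above deleted ones on both probe sets, while the Hoxa9-Meis1 group was highest on the former and lowest on the latter. Where on the transcripts the Meis1 and Hoxa9 probes lie is not given in the sources used here, and whether a Meis1 probe set binds the transduced transcript was not tested. The low Meis1 values of that group therefore may or may not include it.

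Tgif1, the gene of a TALE repressor, had 1 probe set (1422286_a_at). Its mean was highest in Hoxa9-Meis1 and lowest in deleted leukemia, with floxed leukemia between. It was at 9.29, 9.84 and 9.34 in Hoxa9-Meis1 leukemias. On the floxed arrays it was at 9.32, 8.77 and 7.55, and on the deleted arrays at 7.20, 6.03 and 7.11, in the order of replicates 4, 5 and 6. Deleted arrays overlapped with neither other group, while floxed replicate 4 reached the Hoxa9-Meis1 arrays and floxed replicate 6 came near the deleted ones. Tgif1 was 6.54-fold lower in deleted than in Hoxa9-Meis1 leukemia (6.78 ± 0.65 against 9.49 ± 0.30, difference -2.71, SE 0.45, limma adjusted p = 0.00487). The deleted versus floxed difference, -1.76 (SE 0.45, 95% interval -2.79 to -0.74), missed the threshold (limma adjusted p = 0.0557), and it passed without floxed replicate 6 (0.0137, difference -2.26) and when dim probe sets were left out (0.0488). Fitted with 1 value a gene, it passed when genes were means of their probe sets (0.0473). It did not when the probe set of highest mean stood for each gene (0.0511). The floxed versus Hoxa9-Meis1 difference was -0.95 (95% interval -1.97 to 0.08, limma adjusted p = 0.248). Of 5 RefSeq promoter windows of Tgif1, 2 hold the MEIS core TGACAG, which 19.2% of all windows hold, and 1 holds the PBX-HOX motif TGATTNAT, which 3.22% hold.

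Pbx2, a second Pbx gene, had another order of groups than Pbx3: its highest mean was in deleted and its lowest in Hoxa9-Meis1 leukemia on all 3 probe sets. By 1418893_at it was at 10.60, 10.67 and 10.82 in deleted leukemias, at 10.09, 9.72 and 10.37 in floxed and at 9.98, 9.73 and 9.64 in Hoxa9-Meis1 leukemias. By 1418894_s_at it was at 11.09, 11.47 and 11.39 in deleted, at 11.05, 11.01 and 11.25 in floxed and at 10.44, 10.58 and 10.65 in Hoxa9-Meis1 leukemias. By 1449261_at it was at 9.91, 10.33 and 10.44, at 9.96, 9.97 and 10.01, and at 9.27, 9.53 and 9.49 in the same order of groups. Deleted arrays were above all Hoxa9-Meis1 arrays on each probe set, but overlapped with floxed arrays on the latter 2.

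Pbx2 was 1.70-fold to 1.89-fold higher in deleted than in Hoxa9-Meis1 leukemia (differences 0.91, 0.76 and 0.80, limma adjusted p = 0.00905, 0.00636 and 0.00864). In floxed against Hoxa9-Meis1 leukemia 1418894_s_at was called (1.47-fold, limma adjusted p = 0.0372) and 1449261_at and 1418893_at were not (1.46-fold and 1.21-fold, limma adjusted p = 0.0573 and 0.393). The call of 1418894_s_at ended in 8 of 16 alternatives, among them those without floxed replicate 4, 5 or 6, without Hoxa9-Meis1 replicate 1, 2 or 3, and with quantile normalization (limma adjusted p of 0.0519 to 0.137). Between deleted and floxed leukemias no Pbx2 probe set was called. The difference nearest the threshold was that of 1418893_at, 0.64 (95% interval 0.24 to 1.04, limma adjusted p = 0.0695), which passed without floxed replicate 6 (0.0335).

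**Figure D3:**
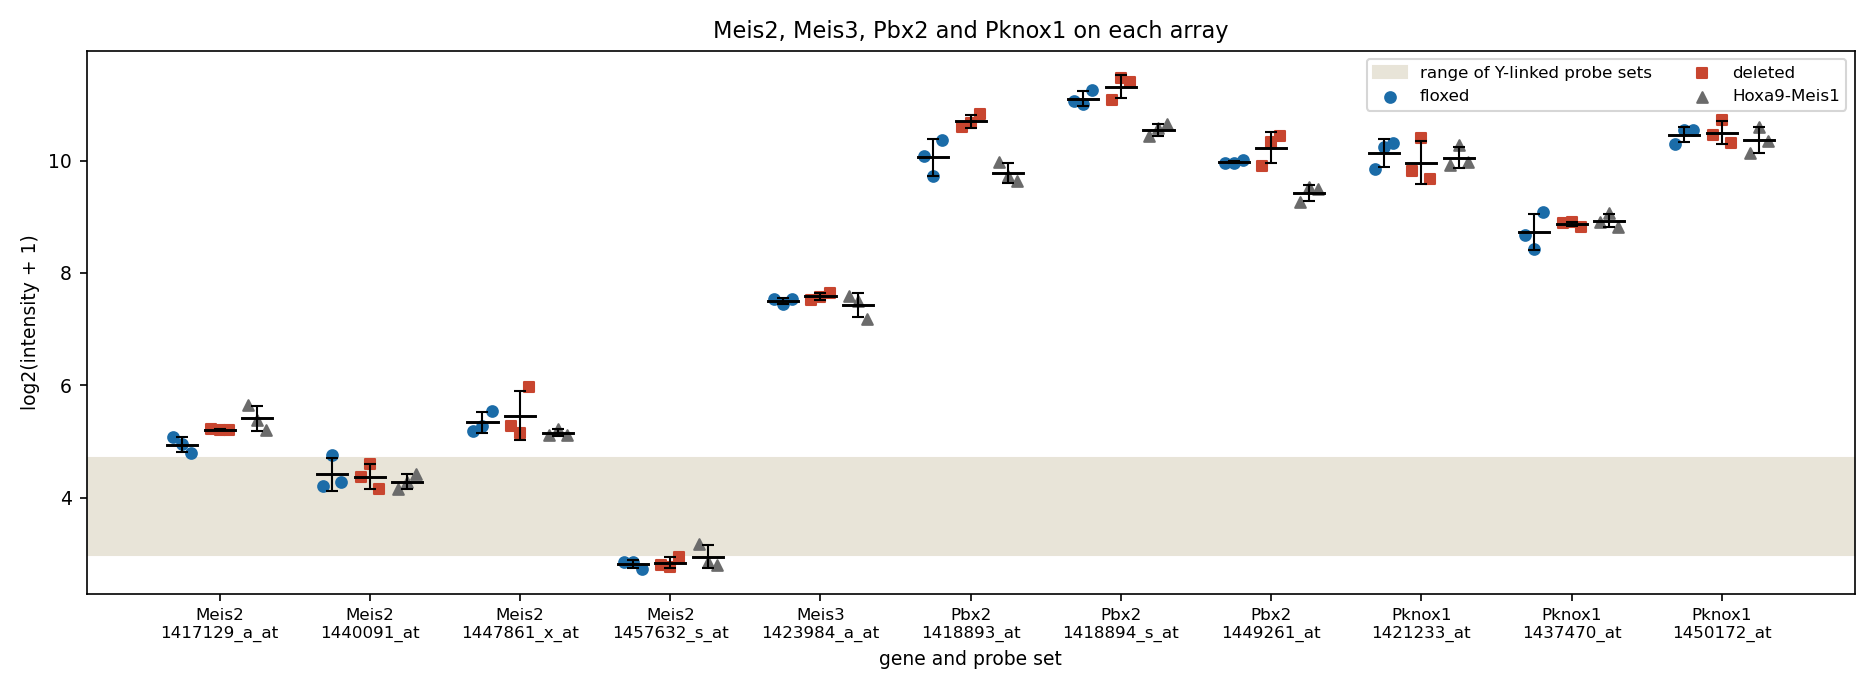
Levels of Meis2, Meis3, Pbx2 and Pknox1 by probe set on each of the 9 arrays, drawn as log2(intensity + 1) with group means and SD over 3 arrays and the range of Y-linked probe sets shaded. Pbx2 is lowest in Hoxa9-Meis1 leukemia, Pknox1 and Meis3 lie level across the groups, and 2 of the 4 Meis2 probe sets lie in or below the shaded band on nearly every array.

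Pknox1, whose product (Prep1) competes with Meis proteins for Pbx, was measured well above background and was called in no comparison. Its 9 arrays ranged from 9.67 to 10.40 by 1421233_at, from 8.43 to 9.08 by 1437470_at and from 10.14 to 10.72 by 1450172_at. The deleted versus floxed differences were -0.17, 0.15 and 0.03, and their 95% intervals reached from -0.65 to 0.31, from -0.22 to 0.51 and from -0.33 to 0.39. Changes of the size seen for Pbx3 lie outside these intervals.

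Meis3, the remaining Meis gene, ranged from 7.19 to 7.65 over the 9 arrays, above the Y-linked range. Some markers of other cells also lay above that range, among them Hba-a1 at 6.10 to 6.42 and Pax5 at 6.58 to 7.23. How far Meis3 stood above background is therefore not shown by that range alone. Its difference between deleted and floxed leukemias was 0.07 (95% interval -0.22 to 0.36, limma adjusted p = 0.79). Meis2 was dim. Its 1457632_s_at lay above the Y-linked range on 0 of 9 arrays and 1440091_at on 1, while 1417129_a_at and 1447861_x_at ranged from 4.80 to 5.65 and from 5.12 to 5.96. None of the 4 Meis2 probe sets was called in the 3 comparisons, and for the former 2, at background, a change was not detectable. The latter 2 lay below Hba-a1 on all 9 arrays, so whether a change in them was detectable is not shown either. The largest Meis2 difference was -0.47, of 1417129_a_at in floxed against Hoxa9-Meis1 leukemia (limma adjusted p = 0.0661), called with array weights (0.0294) or without Hoxa9-Meis1 replicate 3 (0.0403).

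Other genes of the TALE superclass were called in no comparison. Of 10 measured (Pbx4, Pknox2, Tgif2, the 6 Irx genes and Mkx, each by its probe set of highest mean), 0 passed in limma in each of the 3, and 1 had an unadjusted p under 0.05 in each. Their median difference between deleted and floxed leukemias was 0.15, where the median over 18193 genes was 0.06. Over those genes, each by 1 probe set, 6.41% were called in deleted versus floxed, 8.66% in floxed versus Hoxa9-Meis1 and 15.0% in deleted versus Hoxa9-Meis1 leukemia.

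Hox genes, whose products bind DNA with TALE proteins, were called in all 3 comparisons. Of 18 measured Hox partners of the A and B clusters, 7 fell and 1, Hoxb3, rose in deleted against floxed leukemias, at a median of -0.07. Hoxa5 fell from 9.79 ± 0.17 to 6.74 ± 0.18 and Hoxa10 from 10.90 ± 0.26 to 7.83 ± 1.67 (limma adjusted p = 2.28e-05 and 0.0294), the latter with a low deleted replicate 6 at 5.90. Deleted Hoxa9 was at 10.20, 9.90 and 7.35 on replicates 4, 5 and 6 by 1421579_at, so replicate 6 was the lowest deleted array for Hoxa9, Hoxa10, both Pbx3 probe sets and 2 of 3 Meis1 probe sets, while it was the highest for Hoxa3, at 11.24. In floxed against Hoxa9-Meis1 leukemia 8 of the 18 were higher and 0 lower, among them Hoxa3 (11.88 ± 0.23 in floxed) and Hoxa7 (10.26 ± 0.58). In deleted against Hoxa9-Meis1 leukemia 5 were higher and Hoxa9 alone was lower, a direction that depends on the probe set: by 1421579_at Hoxa9 was lower in deleted leukemia, and by 1455626_at it was 33.9-fold higher (limma adjusted p = 0.00171).

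Among 14 genes reported downstream of Meis1 or Hoxa9 in blood cells, 5 fell and 1, Epas1, rose in deleted against floxed leukemias, at a median of -0.27. Flt3, a receptor kinase of progenitors, fell from 11.76 ± 0.40 to 7.19 ± 0.33 (limma adjusted p = 4.69e-05) and stood between these levels in Hoxa9-Meis1 leukemia, at 9.48 ± 0.35. Cd34, a progenitor surface gene, fell from 10.12 ± 0.95 to 6.56 ± 0.35 (limma adjusted p = 0.00375), and was at 10.25 ± 0.68 in Hoxa9-Meis1 leukemia. The other 3 that fell were Ccnd1, Cdk6 and Bcl2. Against Hoxa9-Meis1 leukemia, 2 of the 14 were higher in floxed leukemia, and in deleted leukemia 2 were higher and 4 lower, Sox4 among the latter (7.08-fold, limma adjusted p = 0.00864).

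Of 8 corepressor and Smad partners of Tgif1, Ski alone rose after deletion (1.61-fold, limma adjusted p = 0.0449) and 0 fell. Against Hoxa9-Meis1 leukemia 2 were higher in floxed (Ctbp1 and Skil) and 4 in deleted leukemia (Smad3, Hdac1, Ski and Skil). Of 9 menin, MLL and DOT1L factors, each by its probe set of highest mean, Mllt10 alone fell after deletion and 0 were called by limma between floxed and Hoxa9-Meis1 leukemia, where 1 had an unadjusted p under 0.05. Of the other Mllt10 probe sets, 1420870_at and 1438525_at were higher in floxed than in Hoxa9-Meis1 leukemia (1.39-fold and 1.54-fold, limma adjusted p = 0.0304 and 0.0152). In that list Aff1 alone was higher in deleted than in Hoxa9-Meis1 leukemia. Of all genes, 6.41% were called in deleted versus floxed, 8.66% in floxed versus Hoxa9-Meis1 and 15.0% in deleted versus Hoxa9-Meis1 leukemia. A count of 1 in a list of 8 or 9 does not by itself stand out from these shares. The lists' genes named here because few passed were chosen after their values were seen.

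Genes next to a member on the chromosome were read as well. The nearest measured protein-coding neighbours of Pbx3 on chromosome 2 are Mvb12b, which rose 2.34-fold in deleted against floxed leukemias (limma adjusted p = 0.0438), and Mapkap1, at a difference of 0.53 (limma adjusted p = 0.114). Those of Meis1 on chromosome 11, Etaa1 and Spred2, were at differences of -0.43 and -0.34 (limma adjusted p = 0.207 and 0.527), and in floxed against Hoxa9-Meis1 leukemia Etaa1 was 1.66-fold higher (limma adjusted p = 0.0379) and the difference of Spred2 had a 95% interval of 0.37 to 1.63 (limma adjusted p = 0.059). Those of Tgif1 on chromosome 17, Dlgap1 and Myl12b, were at 0.23 and 0.19 (limma adjusted p = 0.282 and 0.362). For each gene the deviation from its own mean over the 9 arrays was taken, less the median deviation of all genes on the array. The median of this deviation over the genes of chromosome 2, 11 or 17 ranged from -0.05 to 0.02 on the 9 arrays.

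Over the 9 arrays, the level of Meis1 (1459423_at) was followed most closely by Mtbp (Pearson's r = 0.992), Usp46 (0.980) and Hoxa10 (0.980) among 11717 genes with a group mean of at least 7. Pbx3 (1421193_a_at) was followed by Hoxa7 (0.983), the calcium pump gene Atp2a2 (0.973) and Hoxa5 (0.972). Tgif1 was followed by Helb, a helicase gene (0.981), Nt5c3b (0.965) and Plekha3 (0.954). These values describe 9 points in 3 groups normalized together, and a difference between groups enters each r. The size of the swings differed: Mtbp spanned 8.74 to 9.57 in group means and Hoxa10 3.56 to 10.90, the lower end lying within the Y-linked range.

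**Figure D4:**
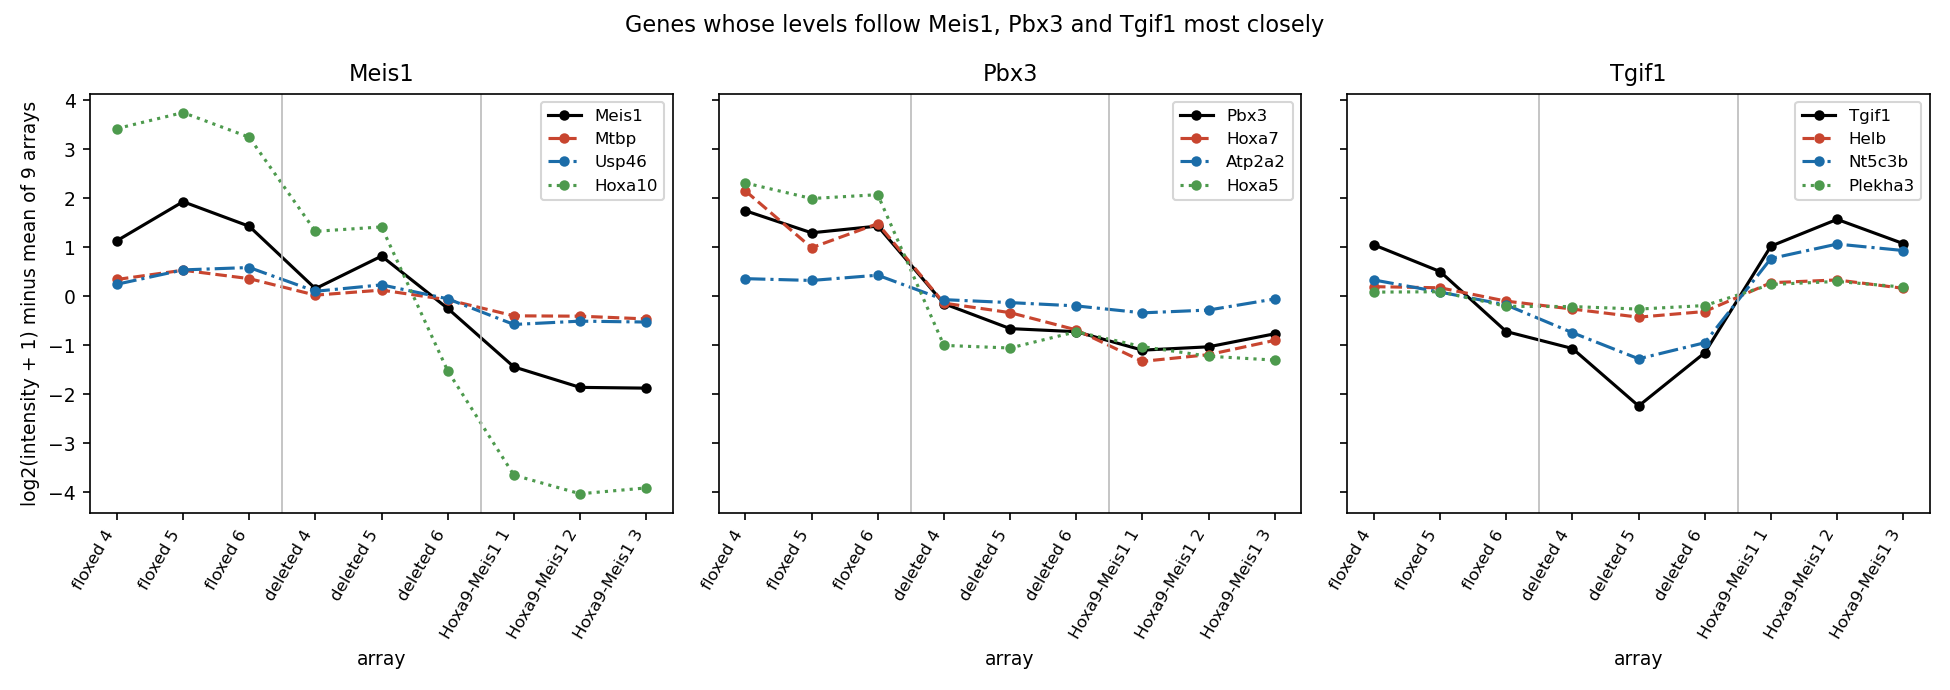
Levels of Meis1, Pbx3 and Tgif1 and of the 3 genes with the highest Pearson's r to each, as log2(intensity + 1) minus the mean over the 9 arrays, with arrays ordered by group on the horizontal axis. Hoxa10 swings more widely than Meis1 while Mtbp and Usp46 swing less, and Hoxa7 and Hoxa5 follow Pbx3 from floxed to deleted and Hoxa9-Meis1 arrays.

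Markers of other cells were also read. Each array holds RNA of many cells, sorted for tdTomato in the floxed and deleted groups and unsorted in the Hoxa9-Meis1 group, so fewer cells of a type and less RNA per cell cannot be told apart. The sort would remove cells without the tdTomato vector, and its purity is not given in the labels. Megakaryocytes and platelets, which express Meis1, gave 0 of 6 markers called by limma in any comparison (at an unadjusted p under 0.05, 0 between deleted and floxed, 1 between floxed and Hoxa9-Meis1, and 2 between deleted and Hoxa9-Meis1 leukemias). Their summed intensity was 882 to 1074 in deleted, 716 to 1032 in floxed and 711 to 1037 in Hoxa9-Meis1 leukemias, with Ppbp within the Y-linked range on every array. Late neutrophil markers gave 0 of 6 called by limma and 0 at an unadjusted p under 0.05, with sums of 71707 to 94270, 58146 to 92823 and 66965 to 84113. T and NK cell markers were called higher in deleted than in floxed leukemia for 3 of 6 (Cd3e, Gzma and Klrd1), and 6 of 6 had an unadjusted p under 0.05. Against Hoxa9-Meis1 leukemia 4 of 6 were called higher in deleted leukemia. The sum of the 6 was 553 to 618 in deleted, against 318 to 354 in floxed and 310 to 328 in Hoxa9-Meis1 leukemias. Some were dim: Klrd1 lay above the Y-linked range on 3 of 9 arrays, Gzma on 6 and Ncr1 on 1. B cell markers did not move one way between deleted and floxed leukemias: 5 of 5 had an unadjusted p under 0.05 and 1, Cd79b, was called, lower in deleted leukemia (9.12 against 9.87). Mean Vpreb1 was 7.84 in deleted against 10.25 in floxed leukemias, whereas Cd79a (8.16 and 7.30), Ms4a1 (5.47 and 4.83) and Pax5 (7.06 and 6.68) had the higher mean in deleted ones. Their sums were 1221 to 1358 in deleted, 1968 to 3313 in floxed and 981 to 2260 in Hoxa9-Meis1 leukemias. Erythroid sums were 2267 to 2728, 1951 to 2453 and 2485 to 2724 over 6 markers, and stromal and endothelial sums were 526 to 783, 492 to 610 and 481 to 525 over 6. In each of those lists 0 markers were called by limma between deleted and floxed leukemias, 0 had an unadjusted p under 0.05, and 1 was higher in deleted than in Hoxa9-Meis1 leukemia. The myeloid sum was 65580 to 76387, 50976 to 70524 and 64759 to 76097, and 1 of 8, Fcgr3, rose after deletion. The part of T, NK and B cells in the member differences was not tested.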

How the data were processed

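RNA of 9 bone marrow samples, 3 per group, was read on 1 Affymetrix array each. Each probe set has 1 deposited intensity per array, made by the authors with RMA, which combines background correction, quantile normalization and probe summary, per the submitters' processing notes. No software version was found in the labels. The intensities are on a linear scale, unlike the log2 output common for RMA, so log2(value + 1) was taken; changes of dim probe sets are understated by this. Precision is limited by the number of arrays. Groups came from the labels.

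All 45037 probe sets other than 64 controls were fitted in 1 group-means model over 9 arrays with limma 3.58.1 (lmFit, eBayes) in R 4.3.3, with two-sided tests. The fitting code was also run on simulated data with planted differences and independent noise, which does not test the calls made here. For list genes and markers, the probe set with the highest mean over 9 arrays stood for the gene. Symbols came from the platform annotation, and 34945 probe sets had 1. Promoters and neighbours came from RefSeq (GRCm38.p6), where 5 of 7 members had a promoter entry. No build is named for the deposited values.

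Members and lists were chosen with earlier results of these data known, so no list received a test or an adjustment of its own. Text names every member probe set, the 4 largest called differences over the related lists per comparison, Hoxa9, Mllt10, few-gene counts, and the 3 genes most correlated with members whose group means span at least 1. Related lists were other TALE genes, Hox partners, reported targets, Tgif1 partners and menin-MLL-DOT1L factors. Alternatives changed pseudocount (32), dim-probe filter, scaling, samples fitted, array weights, variance trend, replicate block, arrays left out and probe sets per gene.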

Additional observations from a re-analysis of the deposited data

How the results depend on the processing

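With 3 arrays a group, precision is limited by their number, and for the 2 dimmest Meis2 probe sets a change was not detectable. For the other 2 Meis2 probe sets it may not have been. Of 16 called member differences, 14 kept their call and direction in every alternative run for them; the others were Meis1 by 1459423_at (deleted versus floxed) and Pbx2 by 1418894_s_at (floxed versus Hoxa9-Meis1), and the cause was not tested. Over 827 member differences recomputed, 768 kept direction and side of the threshold, 19 lost the call, 14 gained one and 26 changed sign, none of them called. Leaving out 1 array gave 2 to 5 called member probe sets in deleted versus floxed leukemia, the 5 without deleted replicate 5. Over all probe sets it gave 1346 to 2725 there (lowest without floxed replicate 5), 1724 to 4125 in floxed versus Hoxa9-Meis1 and 3869 to 7287 in deleted versus Hoxa9-Meis1 leukemia (both lowest without Hoxa9-Meis1 replicate 1). A fit of only the deleted and floxed groups called 1737 probe sets, and member genes by 1 probe set each went from 2 to 1. Removing both deleted replicate 6 and floxed replicate 5, 1061 were called in deleted versus floxed and 2671 in floxed versus Hoxa9-Meis1 leukemia. Whether the replicate numbers 4, 5 and 6 pair the deleted and floxed samples is not known. Same-numbered deviations from the group means correlated at 0.045, 0.053 and 0.032, and differently numbered ones at -0.124 to 0.073. With 3 arrays a group such values cannot settle the question. A replicate block gave 3 member and 2968 probe sets in all and changed no member call.

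The sign changes concerned small uncalled differences. Normalizing by quantiles again gave -0.0031 for Pknox1 1421233_at (floxed versus Hoxa9-Meis1). Array weights gave 0.084 for Meis2 1440091_at and -0.0205 for 1447861_x_at in deleted versus floxed leukemia. Leaving out deleted replicate 6 and floxed replicate 5 together gave 0.24, -0.16 and -0.0089 for Meis2 1440091_at, 1447861_x_at and 1457632_s_at and 0.034 for Pknox1 1421233_at in that comparison, -0.0401 for Meis2 1440091_at in floxed versus Hoxa9-Meis1 and 0.0571 for Pknox1 1421233_at in deleted versus Hoxa9-Meis1 leukemia. With 1 array left out, deleted versus floxed ranged from -0.15 to 0.13, -0.13 to 0.28 and -0.0295 to 0.0635 for those Meis2 probe sets, and from -0.0017 to 0.32 and -0.0763 to 0.12 for Pknox1 1437470_at and 1450172_at. Floxed versus Hoxa9-Meis1 ranged from -0.0401 to 0.23 for Meis2 1440091_at, -0.0444 to 0.16 for Meis3, and -0.0092 to 0.22 and -0.0172 to 0.22 for Pknox1 1421233_at and 1450172_at. Deleted versus Hoxa9-Meis1 ranged from -0.0207 to 0.20 and -0.18 to 0.0074 for Meis2 1440091_at and 1457632_s_at, and from -0.31 to 0.0571 and -0.11 to 0.0052 for Pknox1 1421233_at and 1437470_at.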
